A study of Mus musculus with 6 samples.

Results

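Immediate early genes are transcribed within minutes of a stimulus from factors already present in the cell, and their RNAs are short-lived. Their products include the Fos and Jun proteins, which pair through leucine zippers into the AP-1 transcription factor, the zinc finger factors of the Egr and Klf families, and proteins that end the response. In stem and progenitor cells of the marrow some of them take part in holding cells in quiescence, and in freshly isolated cells they are also known to respond to tissue dissociation and sorting. Described here are 10 of these genes, Fos, Fosb, Jun, Junb, Egr1, Atf3, Klf2, Klf6, Zfp36 and Dusp1, chosen by name, out of 14468 genes listed in 4 RNA libraries. Each name matched 1 row. The choice was made with earlier results of these data known.

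The libraries are total RNA of sorted LSK cells, a marrow fraction (Lin- Sca-1+ c-Kit+) of stem and multipotent progenitor cells, from C57BL/6 mice. There was 1 library each of WT and Setd2 KO cells 4 weeks after pI-pC induction (young) and of WT and Setd2 KO cells 8 months after it (old). Setd2 encodes the enzyme that trimethylates lysine 36 of histone H3, and pI-pC is a double-stranded RNA mimic that switches on the deletion and also triggers an interferon response; by the labels the WT groups had it too. The sources used here name no Cre driver and give neither the age of the mice at injection nor the number of mice behind each library. Values are scaled FPKM, fragments per kilobase of transcript relative to library size, with libraries brought to a common median ratio, and a difference is one of log2(scaled FPKM + 1), which understates the change of low genes. With 1 library per group there is no replicate error and no p-value, and every comparison describes these 4 libraries. A gene was called changed at 2-fold, a difference of 1, if it reached a scaled FPKM of 1 in at least 1 of the 2 libraries.

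Setd2 RNA stood at 14.1 (WT) and 12.4 (KO) in young cells and 15.3 (WT) and 15.5 (KO) in old cells, and a value over the whole gene need not show a deletion of some exons. The files listed 13182 to 13327 genes each, and the counting error at FPKM 5 would be, for 2 kb of transcript, 10.2% to 10.6%. Immunoglobulin segments made up 26.7% of the summed FPKM in old WT and at most 4.63% elsewhere. All 10 stem and multipotent progenitor markers were listed in every library, with a summed level from 183 to 218. Ly6a, which encodes Sca-1, was low for a gene used in sorting, at 3.17 to 8.80. The young and old libraries came from mice of different sex by their RNA: Xist was listed in both old libraries, at 291 and 279, and in neither young one, and the Y-linked Ddx3y the other way round. They also differed in how their low values were spaced. Age, sex and library processing therefore cannot be told apart in any comparison of old with young below. In bulk RNA, more cells that express a gene and more of its RNA per cell cannot be told apart either.

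Promoters of immediate early genes are known to hold sites for factors that signalling kinases act on, so their upstream sequence is shown first. RefSeq (GRCm38.p6, the build of the deposited loci) had an entry for 9 of the 10, all but Egr1. The 250 bases before the start were searched on both strands. The core of the cAMP response element, TGACG, bound by CREB and ATF proteins, was present in 6 of the 9 (Fos, Fosb, Junb, Atf3, Klf2 and Dusp1) and in 17.8% of 32851 promoters. The whole element, TGACGTCA, which holds that core on each strand, was present in Dusp1 alone and in 1.55% of promoters. The GC box GGGCGG, which Sp and Klf proteins bind, was in 8 of the 9, all but Junb, and in 32.7% of promoters. The Egr site GCGNGGGCG was in Fosb, Klf2 and Zfp36 and in 4.70% of promoters, overlapping a GC box in Fosb and Klf2. For Fosb only 177 of the 250 bases searched lie outside the RefSeq gene. Its TGACG, its Egr site and the GC box overlapped by that site, 60 to 41 bases before the start, lie inside. The bases searched for Atf3 lie within its deposited locus. The CArG box, bound by SRF, was in Zfp36 and in 1.47% of promoters, the TATA box TATAAA was in Fos and in 12.4%, and the AP-1 site TGANTCA was in none of the 9 and in 6.75%. These are matches of letters, not measured binding, and sites that depart from these patterns were not searched. The sequences of 5 members that hold such a match follow, 5′ to 3′ on the gene's strand to show how the matches sit. Those of Klf2, Zfp36 and Dusp1 stop where the deposited locus begins, before the RefSeq start, and hold 221, 223 and 203 of the 250 bases searched. Capitals mark the core or the whole of the cAMP element, Egr site, CArG box and TATA box.
Fos, chr12:85473640-85473889, plus strand: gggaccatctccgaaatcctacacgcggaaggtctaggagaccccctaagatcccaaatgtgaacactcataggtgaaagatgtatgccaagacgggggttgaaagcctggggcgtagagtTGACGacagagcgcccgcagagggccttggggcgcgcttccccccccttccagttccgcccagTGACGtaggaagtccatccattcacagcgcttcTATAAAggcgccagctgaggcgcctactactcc
Junb, chr8:84978749-84978998, minus strand: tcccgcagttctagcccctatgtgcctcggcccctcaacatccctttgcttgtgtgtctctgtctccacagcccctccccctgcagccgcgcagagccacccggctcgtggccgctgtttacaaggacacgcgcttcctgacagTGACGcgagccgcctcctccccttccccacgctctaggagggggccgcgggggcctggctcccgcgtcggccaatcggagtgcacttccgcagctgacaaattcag
Klf2, chr8:72318812-72319032, plus strand: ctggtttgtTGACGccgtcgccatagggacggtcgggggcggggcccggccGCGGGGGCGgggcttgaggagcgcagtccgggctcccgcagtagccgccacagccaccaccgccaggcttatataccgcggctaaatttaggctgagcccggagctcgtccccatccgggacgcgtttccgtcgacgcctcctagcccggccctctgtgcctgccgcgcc
Zfp36, chr7:28379256-28379478, minus strand: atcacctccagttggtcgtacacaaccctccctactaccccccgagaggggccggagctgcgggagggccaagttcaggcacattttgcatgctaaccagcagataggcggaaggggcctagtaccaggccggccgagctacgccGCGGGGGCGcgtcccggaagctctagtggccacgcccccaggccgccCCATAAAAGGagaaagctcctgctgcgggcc
Dusp1, chr17:26508520-26508722, minus strand: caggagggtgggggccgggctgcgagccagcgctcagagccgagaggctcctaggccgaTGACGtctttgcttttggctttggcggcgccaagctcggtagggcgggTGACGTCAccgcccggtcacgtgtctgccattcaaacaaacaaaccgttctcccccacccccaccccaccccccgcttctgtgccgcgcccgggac

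All 9 members that were listed in every library stood in one order, with young KO lowest, young WT next, old WT above it and old KO highest; with libraries scaled by housekeeping genes 8 of the 9 did, all but Junb. Of 12030 genes listed in all 4 libraries, 7.67% had that order. The share was 8.07% once antigen receptor segments and predicted, mitochondrial and small RNA genes were left out. Among the 4000 with a locus of under 10 kb, the size of all 9 members, it was 11.1%. The summed level of the members was 379 (WT) and 243 (KO) in young cells and 1310 (WT) and 1813 (KO) in old cells. The tenth, Atf3, was listed only in the old libraries and was also higher in KO. The gap between ages was larger than that between genotypes for every member. Both old libraries stood above both young ones for all 9 members listed throughout, and for 26.3% of the 12030 genes. They did so by 2-fold for 8 of the 9, and for 2% of those genes.

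**Figure D1:**
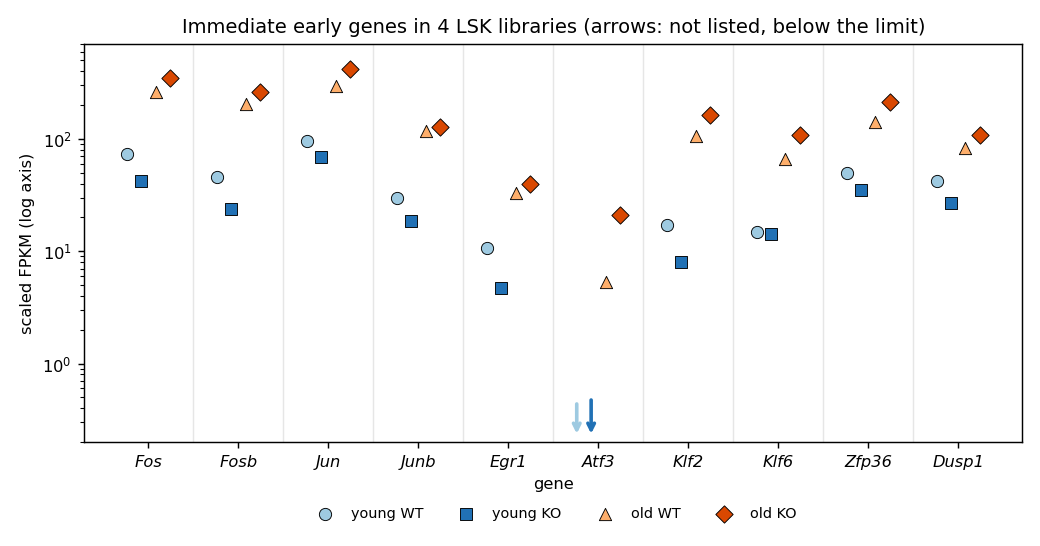
Scaled FPKM (log axis) of the 10 genes in the 4 libraries, 1 point per library. In every gene both old libraries lie above both young ones, as in 26.3% of 12030 genes listed in all 4 libraries. In 9 genes young KO is the lowest and old KO the highest (8 with housekeeping scaling). Arrows mark Atf3, not listed in the young libraries.

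The Fos genes encode the AP-1 subunits that must pair with a Jun protein to bind DNA. Fos (ENSMUSG00000021250, chromosome 12, 85473890 to 85477273) stood at 73.5 (WT) and 42.5 (KO) in young cells and 259 (WT) and 350 (KO) in old cells. Fosb (ENSMUSG00000003545, chromosome 7, 19302721 to 19310045), which also gives a shorter splice form not separated here, stood at 45.7, 23.7, 204 and 262 in the same order. Both were thus lower in KO than WT in young cells and higher in old cells. For Fos the KO difference was -0.77 in young and 0.43 in old cells, and for Fosb it was -0.91 and 0.36. The ratio of old to young was 3.53 in WT and 8.24 in KO for Fos, and 4.46 and 11.0 for Fosb.

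The Jun genes encode the partners, which can also pair with each other; Junb is the weaker activator and restrains myeloid expansion. Jun (ENSMUSG00000052684, chromosome 4, 95049034 to 95052222) was the highest member in every library, at 94.9 (WT) and 68.9 (KO) in young cells and 294 (WT) and 419 (KO) in old cells. The antisense gene Junos overlaps its locus and was at most 1.23, and the sources used here do not say if counting used strand. Junb (ENSMUSG00000052837, chromosome 8, 84976909 to 84978748) stood at 30.0, 18.6, 117 and 128. Its old libraries were close, and its KO difference of 0.13 there was the smallest of the members, turning to -0.03 when libraries were scaled by housekeeping genes. Jun differed by -0.46 in young and 0.51 in old cells. Both genes lack introns, so the deposited locus gives their transcript length and hence the fragments behind them: about 1950 to 11808 for Jun and 303 to 2080 for Junb, a counting error of at most 5.74%. The counts of the old libraries could be 2 times as large, since a fragment may be 1 step of their value spacing and not the 2 assumed.

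Fos and Jun family levels kept similar proportions. Summed Fos and Fosb stood to summed Jun and Junb as 0.953 (WT) and 0.758 (KO) in young cells and 1.13 (WT) and 1.12 (KO) in old cells. The ratio was therefore lowest in young KO and nearly equal in the old pair. Fosb stood to Fos as 0.622, 0.558, 0.786 and 0.748 in the same order. Jund, the Jun gene that is usually expressed without a stimulus and is no member, stood at 49.3, 39.3, 115 and 141. It had the order of the members with smaller gaps between ages, so that the ratio of Jun to Jund was 1.93, 1.76, 2.56 and 2.97.

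Egr1 encodes a zinc finger factor that keeps stem cells in the marrow and out of cycle. Egr1 (ENSMUSG00000038418, chromosome 18, 34859823 to 34864984) stood at 10.6 (WT) and 4.74 (KO) in young cells and 33.2 (WT) and 39.7 (KO) in old cells. Its young KO value was 0.448 of the young WT value, a difference of -1.01, whereas in old cells the difference was 0.25. A transcript of 2 kb at these levels would rest on 84.1 fragments in young KO and 216 in young WT, counting errors of 10.9% and 6.81%.

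Atf3 encodes a bZIP factor of the stress response that can repress its own gene and AP-1 targets. Atf3 (ENSMUSG00000026628, chromosome 1, 191170296 to 191218039) was absent from both young lists, while old WT had 5.31 and old KO 21.0. It was the only member called in the old comparison, with a difference of 1.80 that 36 of 12486 measured genes exceeded. Against the listing limit of 0.5 FPKM, old WT was at least 11.3-fold and old KO at least 41.3-fold higher than the young library of the same genotype.

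The Klf genes encode factors that bind GC-rich promoters. Klf2 keeps lymphocytes and endothelial cells quiescent, and Klf6 is induced in activated myeloid cells. Klf2 (ENSMUSG00000055148, chromosome 8, 72319033 to 72321656) stood at 17.1 (WT) and 8.06 (KO) in young cells and 105 (WT) and 163 (KO) in old cells. The KO value was 0.471 of the WT value in young cells, just short of 2-fold on the log2(scaled FPKM + 1) scale, and in old cells the difference was 0.63. It had the widest range of the members listed throughout, with old to young ratios of 6.16 in WT and 20.2 in KO. Klf6 (ENSMUSG00000000078, chromosome 13, 5861489 to 5870393) stood at 14.9, 14.2, 66.7 and 109. In young cells Klf6 was the member with the smallest KO difference, -0.07, while in old cells its 0.70 was second only to Atf3. The level of Klf2 relative to Klf6 was accordingly 1.15 (WT) and 0.569 (KO) in young cells and 1.58 (WT) and 1.49 (KO) in old cells.

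The feedback genes shorten the response: Zfp36 encodes tristetraprolin, which binds AU-rich RNAs such as those of cytokines and speeds their decay, and Dusp1 encodes a phosphatase that switches off p38, JNK and ERK kinases. Zfp36 (ENSMUSG00000044786, chromosome 7, 28376784 to 28379255) stood at 50.1 (WT) and 35.2 (KO) in young cells and 142 (WT) and 214 (KO) in old cells. Dusp1 (ENSMUSG00000024190, chromosome 17, 26505590 to 26508519) stood at 42.1, 26.6, 83.5 and 108. Both followed the order of the factors they act on. Dusp1 had the smallest ratio of old to young, 1.98 in WT and 4.05 in KO, and its level relative to Fos was 0.573 and 0.627 in young WT and KO but 0.322 and 0.308 in old WT and KO. Zfp36 relative to Fos was 0.681, 0.829, 0.549 and 0.610 in the same order.

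The comparison of KO with WT in young cells asked what loss of Setd2 changed soon after deletion. All 9 measured members lay below 0, with a median of -0.67 against 0.00 over all 12416 genes measured, of which 49.6% lay below 0. Only Egr1 was called lower and none higher, where 0.701% of measured genes were called lower and 1.01% higher. The count rests on genes near the limit. Klf2 passed it with some other scalings and at a pseudocount of 0.1, and without scaling Fosb did too, which gave 3. At a pseudocount of 5 Egr1 fell short, at -0.68, which left 0. At 1.5-fold 6 of the 9 were lower, against 3.64% of genes. Klf2 and Egr1 lay lowest, with 87 and 84 genes below them, and Klf6 was 4676 genes from the bottom. In old cells all 10 members lay above 0, Junb no longer so with housekeeping scaling, at a median of 0.47 against 0.00, where 50.4% of 12486 genes lay above 0. Atf3 alone was called higher, where 1.65% of genes were, and none was called lower, where 2.66% were. At 1.5-fold 3 of the 10 were higher, namely Atf3, Klf6 and Klf2, against 5.50% of genes. Lower in young KO and higher in old KO were 9 of 9 members measured at both ages and 24.4% of 11879 genes.

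**Figure D2:**
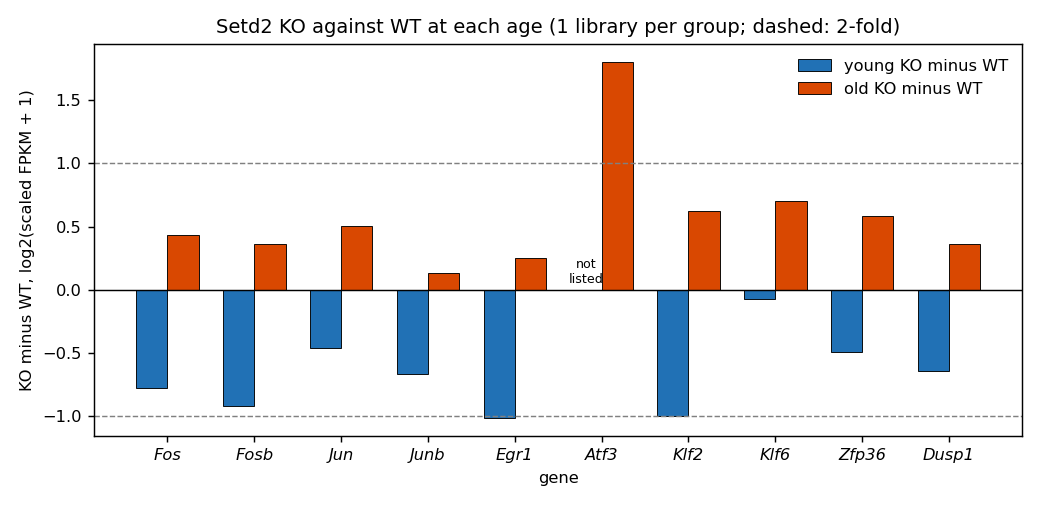
KO minus WT differences, log2(scaled FPKM + 1), of the 10 genes in young and old cells, 1 library per group, with dashed lines at 2-fold. Young bars point down from -0.07 to -1.01 and old bars up from 0.13 (Junb, -0.03 with housekeeping scaling) to 1.80; Atf3 was not listed in the young libraries.

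Old libraries stood above young ones in both genotypes, by a median of 1.86 in WT and 2.84 in KO. In WT 9 of 10 members were called higher in old cells, all but Dusp1 at 0.97, against 4.22% of 12576 genes. At a pseudocount of 5 the count was 8, since Atf3, which was not listed in young cells, stood at 0.92. In KO all 10 were, against 4.95% of 12543 genes. The members are short genes, and among genes with a locus of under 10 kb, the size of every member but Atf3, 9.55% in WT and 10.4% in KO were called higher. None was called lower, against 1.34% of genes in WT and 2.25% in KO. In KO, Klf2 had 12 and Fosb 24 genes with a larger difference among those measured, and Dusp1, the least changed, had 138. The age comparisons share their libraries with the KO comparisons. The larger gap in KO is therefore the same measurement as a KO difference that is higher in old than in young cells.

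**Figure D3:**
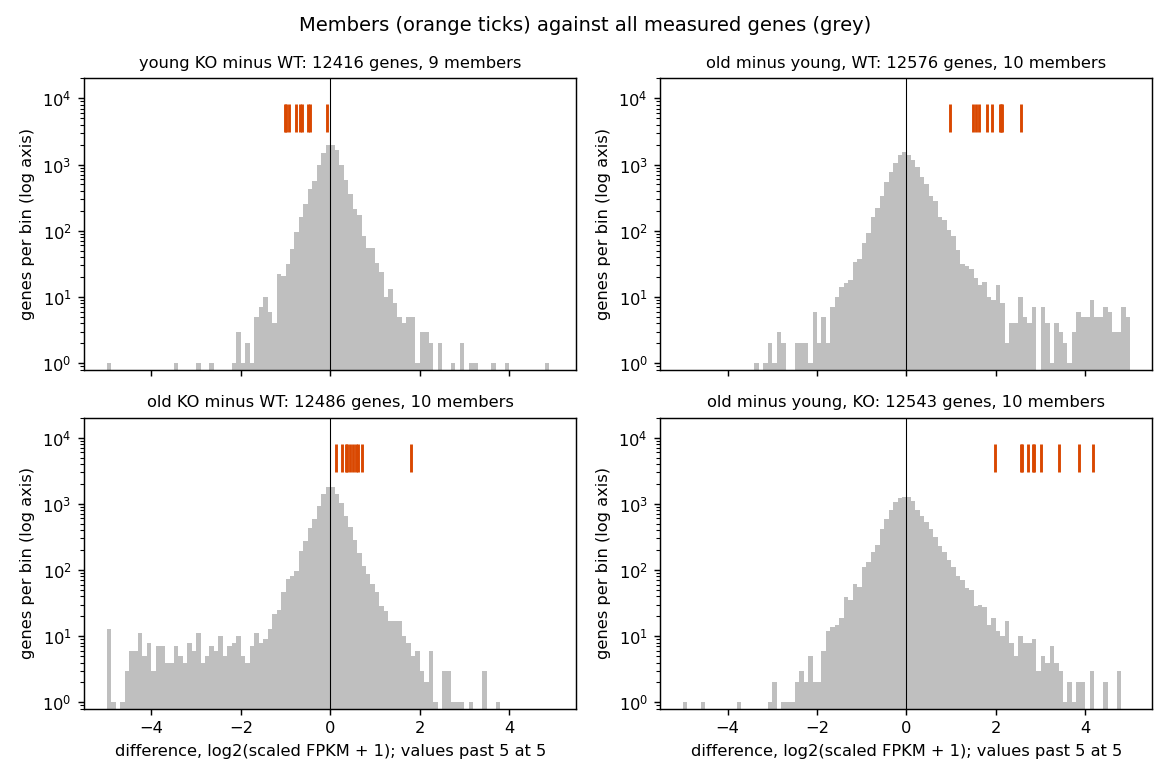
Differences of log2(scaled FPKM + 1) for all measured genes (grey histograms, log count axis) and the members (orange ticks) in the 4 comparisons. Most members sit in the lower flank for young KO and the upper flank for old KO. Klf6 at -0.07 in young KO and Junb at 0.13 in old KO lie nearer the middle. For both age comparisons the members sit in the upper tail, from 0.97 to 4.18.

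Other genes of the pathway, from lists drawn up with earlier results known, showed how far the pattern reached. Of all measured genes 4.22% in WT and 4.95% in KO were called higher in old cells. Among other early response genes 15 of 32 measured were called higher in old WT than young WT and 25 of 33 in old KO than young KO, none lower, with medians of 0.94 and 1.76. They include Ier2, which stood at 105 and 61.3 in young and 233 and 283 in old cells (WT, then KO), and Btg2, an inhibitor of proliferation, at 31.7, 20.7, 88.6 and 125. Both kept the order of the members. In the KO comparisons 1 of 28 was lower in young cells, Cebpd with 8.40 in WT and 3.54 in KO, and 4 of 33 were higher in old cells. Of these, 3 reached a value of 5: Id1 (3.35 in WT, 11.0 in KO), the eIF2 alpha phosphatase subunit gene Ppp1r15a (12.1, 33.9) and the myeloid factor gene Cebpb (13.2, 28.7). The fourth was Id3, named after its values were seen, not listed in old WT and at 4.09 in old KO. Not all early genes differed: Myc stood at 10.8, 10.2, 9.43 and 10.4, and Srf at 13.8, 12.8, 14.6 and 13.8, in the order of libraries given for Ier2; both were picked after their values were seen, as were Ier2 and Btg2.

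Within the families of the members fewer genes differed. Their shares called higher in old cells still exceeded the 4.22% (WT) and 4.95% (KO) of all measured genes. Of 16 other AP-1 and bZIP genes measured, 2 were called higher in old WT and 4 in old KO than in young cells, and in the KO comparisons only Nfil3 was called, with 3.85 in WT and 9.57 in KO of old cells. Of the other Egr, Klf and Nr4a genes, 4 of 16 and 4 of 17 were called higher in old cells in WT and KO, and 1 lower in KO. Klf4, a factor of monocytes, had 12.7 in old WT against 27.2 in old KO, and only 2.07 and 1.82 in the young libraries. Klf1, the factor of red cell genes, went the other way in young cells, at 12.3 in WT and 28.7 in KO. Of 17 further Dusp, Zfp36, Sprouty and Nab feedback genes, 4 were higher in old WT and 3 in old KO, and their KO medians were -0.15 in young and -0.11 in old cells, so that this list lacked the change of sign. In the KO comparisons 1 of the 17 was called, Spry1, an inhibitor of ERK signalling, not listed in young WT and at 3.66 in young KO, named after its values were seen.

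The kinases and factors upstream differed little. Of 37 measured MAP kinase pathway and SRF genes in WT and 36 in KO none was called higher in old cells, and 1 of 37 was called lower in WT. Their median KO differences were -0.10 in young and 0.05 in old cells, and their median age differences -0.09 in WT and 0.08 in KO. Mapk14, which encodes p38 alpha, was the only one called in a KO comparison, with 26.5 in WT and 56.6 in KO of young cells. Inducible heat shock genes, a stress response of another kind, did not share the lower values of young KO: 12 of 14 lay above 0 with a median of 0.38, and 3 were called higher, Hspa1b (not listed in WT, 5.51 in KO), Hsph1 (5.74, 15.8) and Bag3 (2.76, 7.13). In old KO Hspa1b (2.07, 8.19) and Hspa1a (2.96, 8.44) were called higher and the median was 0.31. Between ages the heat shock list was higher in old cells, as the members were, with 12 of 14 above 0 in WT and 13 of 14 in KO. Its medians were 0.76 and 0.53, and 3 and 1 genes were called higher. In the same order 49.2% and 49.8% of all measured genes lay above 0, and 4.22% and 4.95% were called higher.

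**Figure D4:**
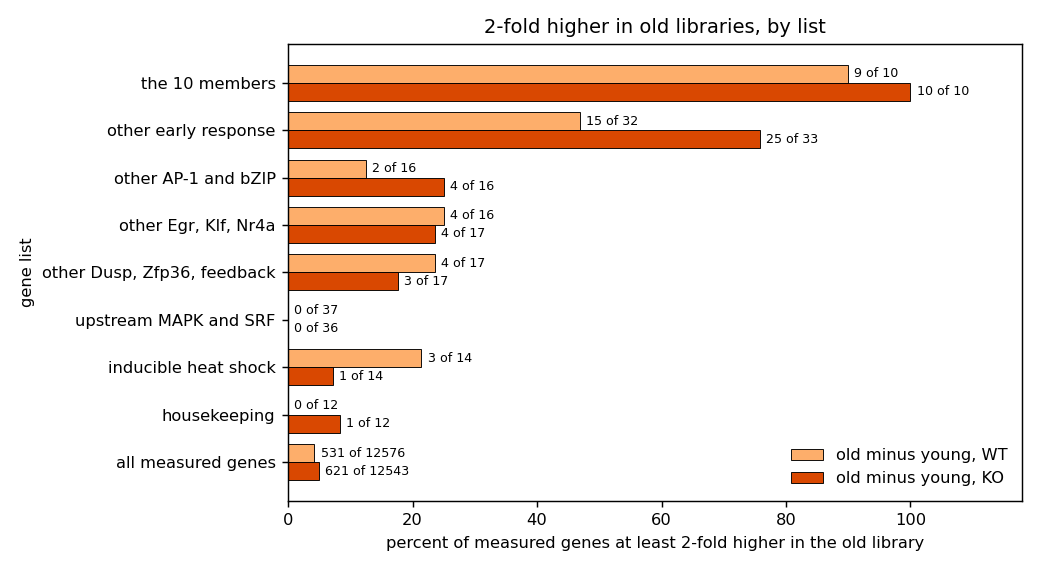
Percent of the measured genes of each list that were at least 2-fold higher in the old library, in WT and in KO, with counts beside the bars. The members (9 of 10 and 10 of 10) and the other early response genes (15 of 32 and 25 of 33) exceed all measured genes (4.22% and 4.95%). The other AP-1 and bZIP (2 and 4 of 16) and Egr, Klf and Nr4a genes (4 of 16 and 4 of 17) do so too. So do the feedback (4 and 3 of 17) and heat shock genes (3 and 1 of 14). The upstream kinases are at 0.

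Genes whose centred values over the 4 libraries lay nearest the members' median were sought among genes at a mean of 5 or more. Antigen receptor segments and predicted, mitochondrial and small RNA genes were left out. With the members themselves also left out, the nearest 5 were Btg2 at a Euclidean distance of 0.31, Cd69 at 0.42, Egr3 at 0.43, Rhob at 0.63 and Fau at 0.64. In the order of libraries given for Ier2, Cd69 stood at 14.3, 10.6, 49.6 and 54.2, and Egr3 at 1.32, 0.637, 7.53 and 14.7. Fau, a ribosomal protein gene, stood at 30.5, 32.9, 178 and 233, so it shared the age gap without the lower young KO value. With the other members let in, the nearest to Egr1 were Junb, Fos and Btg2, at 0.29 to 0.40. The nearest to Atf3 were Ngp, Klf4 and Pmaip1, at 0.58 to 0.63; Ngp is a granule gene of neutrophils and Pmaip1 encodes the death protein Noxa. With 4 values a gene, such likeness is a description only.

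Markers of mature cells differed between the same libraries. The summed level of 11 neutrophil markers was 31.5 (WT) and 25.4 (KO) in young cells and 61.9 (WT) and 363 (KO) in old cells, with 4, 5, 10 and 11 of them listed, and thus had the order of the members. That of 14 monocyte and macrophage markers was 179, 141, 129 and 380, so it was lower in old WT than in young WT, where the members were higher; C1qc was under 1 throughout. The 9 plasma cell markers summed to 44.8, 60.6, 2199 and 214, so they were highest in old WT, where the members were not. The 13 erythroid markers summed to 293, 684, 233 and 160, highest in young KO, where the members were lowest, and mast cell and basophil markers to 417, 440, 103 and 56.8. Megakaryocyte markers summed to 23.6 to 63.5, B cell markers to 7.85 to 42.4 and T and NK cell markers to 37.4 to 59.6, of which Nkg7 alone gave 33.6 to 58.5. Klf1 is in a marker list and in a pathway list. Of the lymphocyte markers, Vpreb1, Cd3d, Cd3g and Klrb1c were under 1 in every library and Ms4a1 was not listed in any. Among stromal and endothelial markers Cdh5, Kdr and Lepr were under 1 throughout and Col3a1 was in no library's list, and the sum was 13.5 to 22.4. The part of these cells in the members' levels was not tested.

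**Figure D5:**
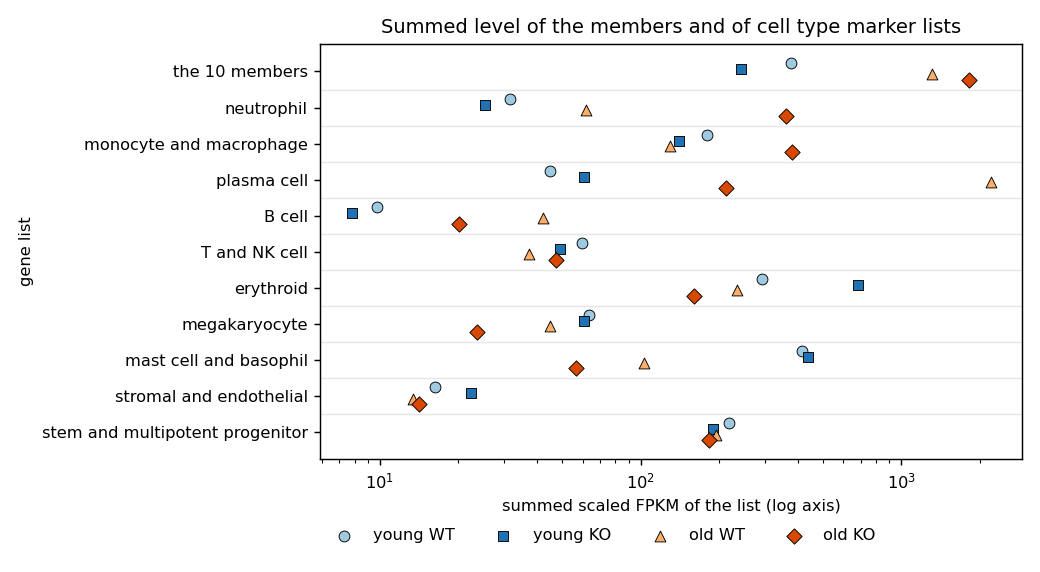
Summed scaled FPKM (log axis) of the members and of 10 marker lists in the 4 libraries, 1 point per library. The neutrophil sum follows the members' order from 25.4 in young KO to 363 in old KO. Csf3r, which lacks that order, gives most of both young sums. Plasma cell markers peak at 2199 in old WT and erythroid markers at 684 in young KO.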

How the data were processed

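The deposited files give 1 FPKM per gene and library, made by the authors, as the file headers show. Tools and build come from the submitters' processing notes, which list mm10 (GRCm38), HISAT2 2.0.4 and StringTie 1.3.0 among other tools, with no role or order; the sources used here do not give strand use. Every file lists genes at 0.5 or more, so for differences and ratios an unlisted gene was set to that limit, which makes any fold against it a minimum. The summed levels of the members and of the marker lists leave unlisted genes out. The 2 bisulfite samples were not analysed here.

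FPKM was divided by median-of-ratios factors over 10939 genes at 1 or more in all libraries (1.06 and 0.981 for WT and KO in young, 0.982 and 0.979 in old cells). Dates were turned back into 18 symbols. Of 14468 identifiers, 14382 were in the gene name table. The pseudocount was 1. Read depth is not in the files; it was inferred from how low values are spaced. Of values of genes under 1500 bp, 68.1% to 74.8% lay within 0.1 of a whole step, where an even spread gives 20%. A fragment was taken as 2 steps in every library, and odd multiples made up 4.55% to 5.15% in young and 54.0% to 56.1% in old libraries, so counting errors are approximate and cover counting alone. Scaling and the 2-fold call were tested on a simulated pair of young libraries, and the inference of depth was not.

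The 10 genes and all 17 lists were chosen with earlier results of these data known. Genes of the lists were named when they reached 2-fold at a value of 5 in a KO comparison, at most 6 a list and comparison, and genes of like pattern by Euclidean distance; exceptions are stated. Some genes of the lists are not reported here. Computation used Python 3.11.15, numpy 2.4.6 and pandas 2.3.3.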

Additional observations from a re-analysis of the deposited data

Results flagged for a closer look

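For 9 members the KO difference had opposite signs at the 2 ages, below 0 in young and above 0 in old cells, and was flagged for a closer look. Of 11879 genes measured at both ages, 24.4% had these signs. With housekeeping scaling Junb lost them, at -0.03 in old cells. The old difference less the young one, on the log2(scaled FPKM + 1) scale, was 1.21 for Fos, 1.27 for Fosb, 0.96 for Jun, 0.80 for Junb, 1.27 for Egr1, 1.62 for Klf2, 0.77 for Klf6, 1.08 for Zfp36 and 1.01 for Dusp1. The difference between ages was not tested, since each group is 1 library, and age, sex and library processing cannot be told apart. The smallest parts of it are the young value of Klf6 (-0.07) and the old value of Junb (0.13).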

How the results depend on the processing

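No paired analysis was possible because each group has 1 library, and for the same reason no library could be left out. The median member difference kept its sign under every alternative run, from -0.78 to -0.57 in young KO, 0.31 to 0.47 in old KO, 1.67 to 1.89 for age in WT and 2.51 to 2.99 for age in KO. The count of members 2-fold lower in young KO rests on genes near the limit: it was 1, and 3 without scaling, 2 with upper-quartile scaling, 2 with scaling to the summed FPKM over genes other than antigen receptor segments and predicted, mitochondrial and small RNA genes, 2 at a pseudocount of 0.1, 0 at a pseudocount of 5, where Egr1 lost its call at -0.68, and 6 at 1.5-fold. The count 2-fold higher with age in WT was 9, and 8 at a pseudocount of 5, where Atf3 lost its call at 0.92. At 1.5-fold it was 10, against 9.93% of 12576 genes. The count 2-fold higher in old KO was 1, and 3 at 1.5-fold. Scaling by 12 housekeeping genes, added after the data were seen, moved the median of all genes to -0.14 in old KO against WT, turned the Junb difference in old KO to -0.0302 and left 8 of 9 members in the common order; the cause was not tested. It moved the median of all genes to -0.13 for age in WT and -0.27 for age in KO, and scaling to the summed FPKM of the restricted genes moved these to -0.12 and -0.19; without scaling it was -0.10 in young KO against WT and -0.11 for age in WT. At the lowest listed member value, that of Egr1 in young KO, a transcript of 2 kb would have a counting error of 10.9%.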
